A study of Mus musculus with 16 samples.

Results

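Untreated MC38 tumors were compared with untreated Panc02-SIY tumors to describe the immune infiltrate of each tumor before any treatment. The members were the 8 libraries, of 16 in the series, that the labels call untreated, with 4 replicates for MC38 and 4 for Panc02-SIY. Each library holds live CD45+ cells (leukocytes) that were enriched on magnetic beads and sorted from subcutaneous flank tumors of C57BL/6J mice, with mice of the study being 6 to 8 weeks old, and the 8 libraries carry no other allele or agent. MC38 cells derive from a mouse colorectal carcinoma. Panc02-SIY cells derive from a mouse pancreatic adenocarcinoma and were made to express SIY, a model antigen for T cells. Each group therefore stands for 1 transplanted line, tumors were implanted with more Panc02-SIY than MC38 cells, and the line cannot be told apart from the inoculum. The labels give 4 replicates and the design text of the series 4 animals per group, while the methods of the study give 3 animals, and none of these ties a library to an animal, so the errors and p-values given here measure only the spread between libraries, which may be technical.

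Tumor leukocytes comprise lymphocytes, such as CD8+ T cells and NK cells that kill target cells with granzymes and perforin, and myeloid cells, such as neutrophils, monocytes, macrophages and conventional dendritic cells (cDCs). Macrophages take up dead cells and lipid, make complement C1q and display antigen on MHC class II molecules. Type I interferon, released when cells sense nucleic acids, induces a shared set of antiviral genes, and interferon gamma, released mainly by T and NK cells, induces another set that partly overlaps with it.

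Libraries of the MC38 line shared most of their cell barcodes. Of the barcodes called in the untreated MC38 libraries, 77.9 to 89.1% were also called in another MC38 library, against 2.31 to 8.39% for Panc02-SIY. A barcode found in several libraries of a line was therefore kept only in the library where it had most UMIs (unique molecular identifiers, which count captured mRNA molecules). This left 1327 barcodes in untreated MC38 libraries (218 to 502 per library) and 9405 in untreated Panc02-SIY libraries (1113 to 4452), out of 20768 kept in the series. The rule kept 21.6 to 38.2% of the called barcodes per untreated MC38 library and 94.3 to 98.1% per untreated Panc02-SIY library. The kept barcodes held 3422372 to 8500443 UMIs per MC38 library and 6500446 to 43708746 per Panc02-SIY library, and their median was 6121 to 11097 UMIs per barcode in MC38 and 4770 to 6594.5 in Panc02-SIY. Over all called barcodes the median was 1453 to 1861 UMIs in MC38 and 4375 to 6412 in Panc02-SIY. The order of the groups in depth per barcode therefore turned with this rule. Ptprc (ENSMUSG00000026395), which encodes CD45 and was chosen as a check after its values were seen, was present in both groups at 488 ± 37.6 and 1388 ± 204.5 CPM (UMIs scaled to a common library total by the trimmed mean of M values, mean ± SD, n = 4 in each group). Tumor line, sharing of barcodes and depth per barcode moved together, so that their parts in the results below cannot be told apart.

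Graph-based clustering gave 23 clusters, named from cell type markers, and the composition of both infiltrates differed. T cell-like clusters held 1.60 ± 0.607% of the barcodes in untreated MC38 libraries and 32.3 ± 3.59% in untreated Panc02-SIY libraries (mean ± SD, n = 4 in each). The 4 MC38 libraries had 0.870 to 2.29% and the 4 Panc02-SIY libraries 27.04 to 35.2%, with no overlap. This class, of 20 MC38 and 3107 Panc02-SIY barcodes, leaves out cluster 11, named regulatory T cell-like and given below. Cluster 11 raised 11 of 15 T cell markers and held 47 MC38 and 346 Panc02-SIY barcodes, so the T cell-like share is not that of all T cells. NK cell-like barcodes made up 1.68 ± 1.16% against 7.62 ± 3.51%, and neutrophil-like barcodes 0.554 ± 0.181% against 7.79 ± 2.22%. Unnamed cluster 9 raised 4 NK cell and 3 gamma delta T cell markers and held 16 MC38 and 553 Panc02-SIY barcodes. The NK cell-like share leaves cluster 9 out. Mast cell-like or basophil-like barcodes were 0 of 1327 in MC38 and 42 of 9405 in Panc02-SIY, and eosinophil-like barcodes 0 and 48, where a count of 0 of 1327 allows a share of up to 0.226% by counting error alone. The eosinophil-like name, of cluster 21, rests on 3 raised markers, and 3 neutrophil markers were raised in it too. Its median depth was 718 UMIs, 0.124 of the median of its own libraries. Macrophage-like barcodes dominated the MC38 libraries, at 62.7 ± 4.86% against 0.851 ± 0.529% in Panc02-SIY. These 6 classes differed by an exact two-sided permutation test over libraries, each with p = 0.0286, the smallest that 4 against 4 libraries allow, and an adjusted p of 0.0429 over the classes. Shares of regulatory T cell-like (3.57 ± 1.38% against 4.71 ± 2.44%), B cell-like (0.527 ± 0.231% against 0.929 ± 0.682%), monocyte-like (1.00 ± 0.978% against 1.76 ± 1.21%) and cDC-like barcodes (3.89 ± 1.68% against 2.61 ± 0.914%) overlapped between the groups and did not pass the threshold (exact permutation test, adjusted p of 0.343 to 0.400). These calls depended on the barcodes used and on the clusters. All called barcodes, and barcodes found in 1 library of the line, were clustered and named anew, so their classes are not those above. With all called barcodes the B cell-like (adjusted p = 0.0381 by the exact permutation test), cDC-like (0.0381) and monocyte-like (0.0686) differences passed, and with a cell filter, which dropped barcodes of under 500 detected genes or over 10% mitochondrial counts, the B cell-like and cDC-like differences did (exact permutation test, adjusted p = 0.0343 for each). On barcodes found in 1 library of the line the NK cell-like difference turned and passed, at 8.71 percentage points (exact permutation test, adjusted p = 0.0857). The cDC-like difference passed at 18.1 points (exact permutation test, adjusted p = 0.0490). NK cell markers summed over the same barcodes did not turn, with 5 of 11 lower and none higher. Of 25 cDC markers 3 were higher and 6 lower. Among all genes tested on these barcodes 16.9% were higher and 19% lower, so the cDC counts were near the shares of all genes.

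**Figure D1:**
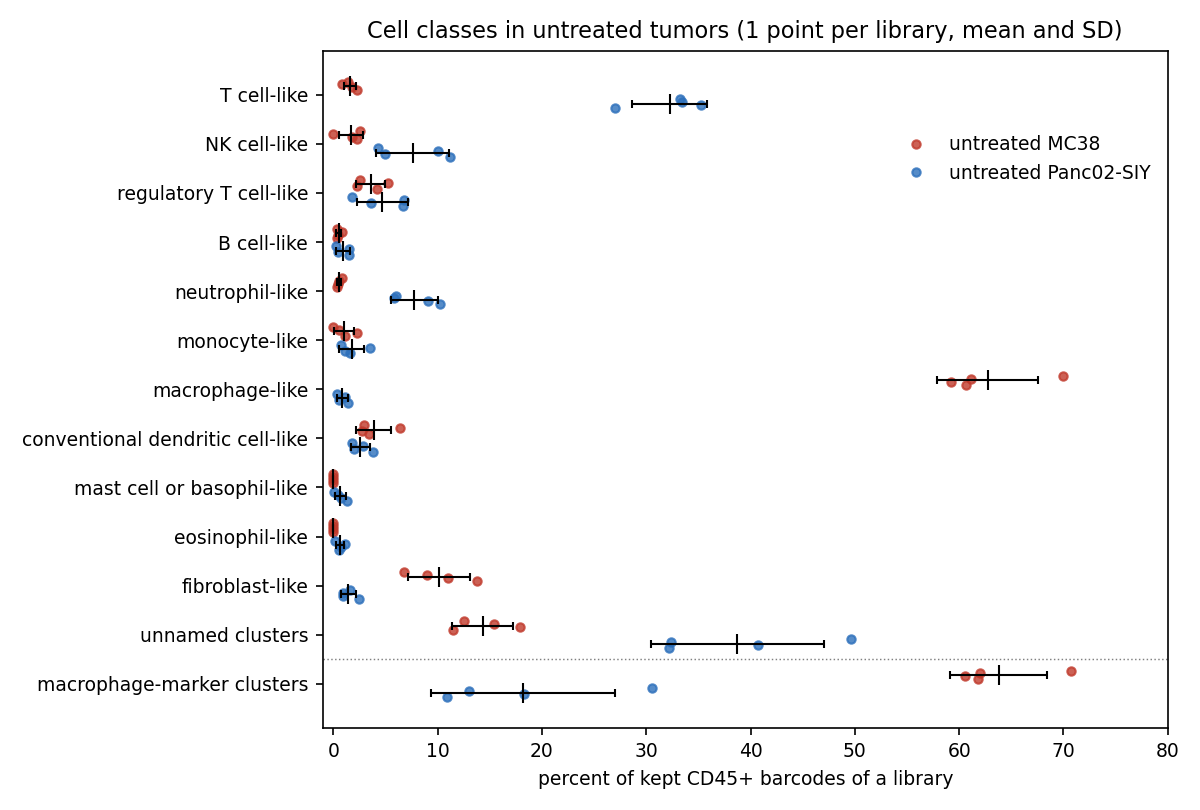
The x axis gives the percent of kept CD45+ barcodes of a library in each class, with 1 point per library and the mean and SD as a black bar, red for untreated MC38 and blue for untreated Panc02-SIY. T cell-like barcodes lie between 27.04 and 35.2% in all Panc02-SIY libraries and at or below 2.29% in all MC38 libraries, and the row under the dotted line gives the 5 macrophage-marker clusters, which hold 60.6 to 70.7% of MC38 and 10.9 to 30.6% of Panc02-SIY barcodes.

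The macrophage-like share is not a like-for-like comparison, because the clusters that raised macrophage markers differed between the lines and some stayed unnamed. Cluster 8, led by Ccl12, Apoe, Trem2 and Arg1, held 555 MC38 and 54 Panc02-SIY barcodes. Cluster 4, led by Cd300e, Klra17 and Fcgr4, held 0 and 720, and cluster 0, led by Wfdc17, Gbp2b and Aif1, held 13 and 1316. Clusters 4 and 0 raised 9 and 6 of 16 macrophage markers but stayed unnamed, the first because cDC markers (Cadm1, Clec4b1) were among its leading genes and the second because its depth was low (median 1083 UMIs, 0.180 of the median of its own libraries) with no macrophage marker among its 10 leading genes. Cluster 19, at 0.118 of that median, was named because macrophage markers such as Trem2 were among its leading genes. All 5 clusters with at least 6 raised macrophage markers, a set chosen after the clusters were seen, together held 63.8 ± 4.67% of MC38 and 18.2 ± 8.83% of Panc02-SIY barcodes (difference 45.6 percentage points, exact permutation p = 0.0286). The median depth of their barcodes was 17409.5 to 22147.5 UMIs in MC38 libraries and 1133 to 2716 in Panc02-SIY libraries. Unnamed clusters held 14.3 ± 2.90% of MC38 and 38.7 ± 8.27% of Panc02-SIY barcodes in all.

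The same contrast was read without clusters, by thinning each barcode to 1000 UMIs and leaving out 195 MC38 and 1415 Panc02-SIY barcodes below that depth. A UMI of Cd3d, Cd3e or Cd3g, subunits of the T cell receptor complex, was then found in 9.44 ± 2.67% of MC38 and 49.5 ± 3.05% of Panc02-SIY barcodes, with 5.80 to 12.0% in MC38 libraries and 46.9 to 52.7% in Panc02-SIY libraries. The share in macrophage-like barcodes, which should lack these genes, was 1.73%, and their median depth before thinning was 19059 UMIs. Because 850 of these barcodes came from MC38 and 60 from Panc02-SIY, this background stands mainly for the MC38 libraries. A UMI of C1qa, C1qb or C1qc, the chains of complement C1q, was found in 67.6 ± 8.21% of MC38 and 24.3 ± 12.6% of Panc02-SIY barcodes, against 10.95% in T cell-like barcodes (median depth before thinning 8786 UMIs). Of these T cell-like barcodes 20 came from MC38 and 3107 from Panc02-SIY, so this background stands mainly for the Panc02-SIY libraries. A C1q background for the MC38 libraries was not measured. Without thinning the shares were 18.1 ± 5.89% and 54.4 ± 4.59% for Cd3 and 88.7 ± 3.93% and 43.5 ± 17.3% for C1q. Groups did not overlap in either measure, each with p = 0.0286 (exact permutation test).

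UMIs were then summed per library over all kept barcodes and tested gene by gene. Of 12447 genes tested, 3622 were called higher in untreated MC38 (29.1%) and 3988 lower (32.0%), where a call needed an adjusted p from the quasi-likelihood test of edgeR under 0.1 and a change by more than 1.3 times. The lists below are read against these shares of 29.1 and 32.0%. A gene near 0 in 1 group passes the filter on low counts only through the other group, so the direction of its call was largely fixed beforehand. Groups did not overlap, with all 4 MC38 libraries above all 4 Panc02-SIY libraries or the reverse, for 28.3% and 29.0% of genes tested. The median log2 fold change (MC38 over Panc02-SIY) of all genes was -0.04, and 47.6% of the calls were higher in MC38. With libraries scaled by total count alone the median moved to -0.24 and the split to 2785 higher and 5006 lower, 35.7% higher. Barcodes found in 1 library of the line held 256597 to 1475742 UMIs per untreated MC38 library. With these alone 1940 of 11472 genes tested were higher (16.9%) and 2185 lower (19%). Actb, mt-Co1, Ikzf2, Foxp3, Ly6c2, Siglech, Col1a1, Psmb8, Ctsd, Fcer1g, Hspa8 and Xist, all described below, then had the opposite sign. Calls were fewer over all genes, so list counts on these barcodes, here and below, are read against 16.9% and 19%. On these barcodes fewer members were called lower for the NK cell (5 of 11), B cell (3 of 11), plasma cell (1 of 4), neutrophil (4 of 10) and inhibitory receptor (4 of 10) lists, and fewer higher for the monocyte (4 of 9) and lipid-associated macrophage lists (7 of 13, with 2 lower). Sums over a mixed population do not separate fewer cells of a type from less RNA per cell.

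**Figure D2:**
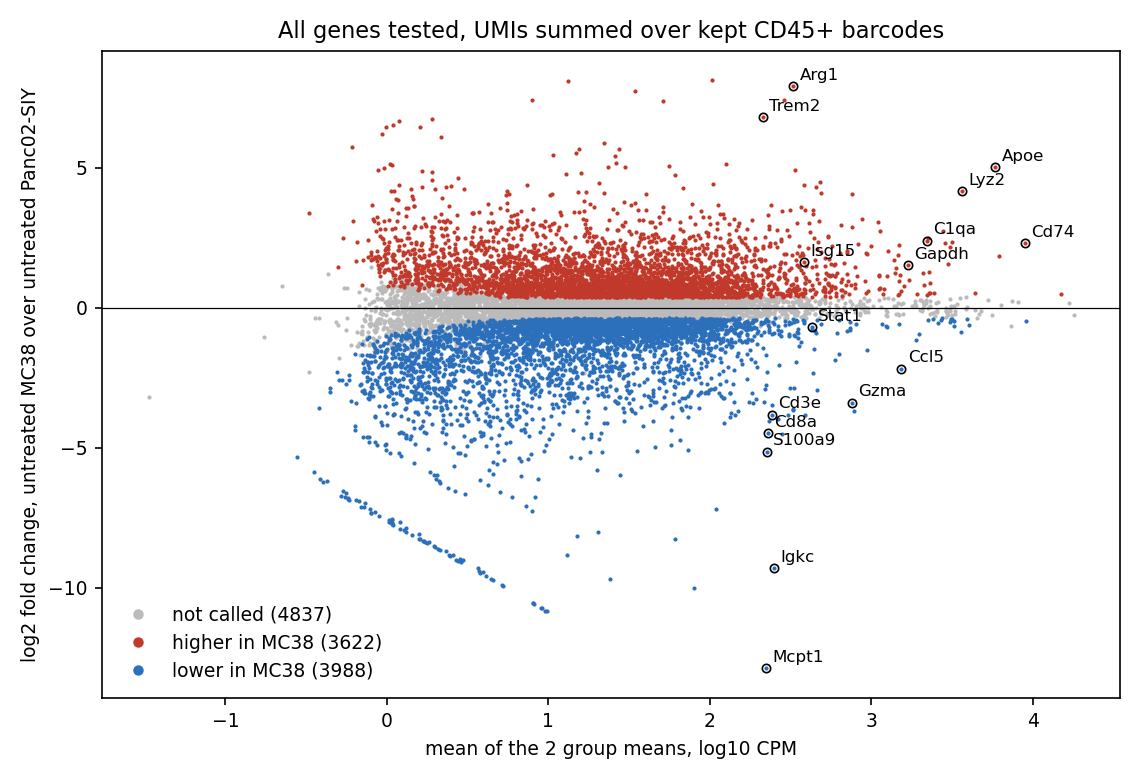
Each point is 1 of 12447 genes, with the mean of both group means on the x axis (log10 CPM) and the log2 fold change of untreated MC38 over untreated Panc02-SIY on the y axis, red for 3622 genes called higher, blue for 3988 called lower and grey for genes not called. The slanted line of points at the lower left is made of genes with no UMI in MC38, whose fitted fold change depends on the prior count and is no measure of size.

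Genes of lymphocytes were lower in untreated MC38. All 15 T cell markers were called lower, with a median log2 fold change of -3.65, and their summed level was 297 to 508 CPM in MC38 libraries and 4374 to 5341 CPM in Panc02-SIY libraries. Cd3e (ENSMUSG00000032093), a signaling subunit of the T cell receptor complex, had 35.2, 41.5, 23.9 and 29.4 CPM in the untreated MC38 libraries and 481, 475, 508 and 348 CPM in the untreated Panc02-SIY libraries. Every MC38 library was below every Panc02-SIY library (log2 fold change -3.81 ± 0.46, adjusted p = 5.9e-06, SE here and below). Cd8a (ENSMUSG00000053977), the coreceptor of cytotoxic T cells, had 17.03, 34.7, 6.79 and 21.6 CPM in the untreated MC38 libraries and 441, 436, 467 and 413 CPM in the untreated Panc02-SIY libraries (log2 fold change -4.49 ± 0.54, adjusted p = 6.3e-06). Cd4, the coreceptor of helper T cells, was low in both groups, at 3.67 ± 1.28 against 17.4 ± 9.68 CPM (log2 fold change -2.19 ± 0.51, adjusted p = 0.0017). Trbc2, Cd3g and Cd3d, also parts of the T cell receptor complex, had log2 fold changes of -3.85, -3.65 and -3.84 and no overlap between groups. All 7 regulatory T cell markers were called lower as well, at a median of -1.94, among them Ctla4 (-2.62 ± 0.39), an inhibitory receptor, Ikzf2 (-1.94 ± 0.35) and Tnfrsf18 (-2.03 ± 0.35). With only barcodes found in 1 library of the line 1 of these 7 markers was lower and the median was 0.13. Foxp3, the lineage factor of regulatory T cells, had 4.73, 0.3095, 4.11 and 1.79 CPM in the untreated MC38 libraries and 26.8, 6.48, 10.6 and 1.33 CPM in the untreated Panc02-SIY libraries, groups that overlapped (log2 fold change -1.95 ± 0.91, adjusted p = 0.075), and its call was lost without any 1 of 4 libraries (adjusted p of 0.106 to 0.298).

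Cytotoxic genes followed the same direction. All 11 NK cell markers were lower (median -2.72), as were 10 of 15 tested cytotoxic granule and effector genes with none higher (median -2.72), and their summed levels were 189 to 1546 CPM in MC38 and 3807 to 5144 CPM in Panc02-SIY for the latter list. Gzma (ENSMUSG00000023132), a granzyme, had 212, 131, 6.61 and 181 CPM in the untreated MC38 libraries and 1605, 1678, 1298 and 988 CPM in the untreated Panc02-SIY libraries. The lowest MC38 library was far below the other 3, and all 4 stayed below the Panc02-SIY libraries (log2 fold change -3.39 ± 0.65, adjusted p = 4.3e-04). Nkg7 (ENSMUSG00000004612), a granule membrane protein of cytotoxic cells, had 176, 119, 48.8 and 106 CPM in the untreated MC38 libraries and 1514, 1475, 1455 and 1365 CPM in the untreated Panc02-SIY libraries (log2 fold change -3.69 ± 0.36, adjusted p = 7.5e-07). Gzmb, another granzyme, was at 144 ± 139.9 against 721 ± 124 CPM, with 353 CPM in 1 MC38 library and 49.8 to 90.9 CPM in the other 3, and its log2 fold change of -2.32 became -3.26 without that library. Ifng, which encodes interferon gamma, was at 25.4 ± 21.3 against 257 ± 64.02 CPM (log2 fold change -3.38 ± 0.61, adjusted p = 2.3e-04). Ncr1, the NK receptor NKp46, was at 13.9 ± 13.8 against 44.4 ± 26.8 CPM with overlapping groups (log2 fold change -1.68 ± 0.63, adjusted p = 0.031, and adjusted p = 0.113 without Panc02-SIY replicate 1). Klrd1, the CD94 receptor chain, had a log2 fold change of -2.87, Klrk1, the receptor NKG2D, one of -1.68, and Klre1, another NK lectin-like receptor, one of -3.15.

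Of 10 inhibitory receptors, 8 were lower and none higher (median -2.65). Lag3, an inhibitory receptor of activated T cells, was at 29.4 ± 13.1 against 239 ± 31.4 CPM, and Tox (ENSMUSG00000041272), a transcription factor of exhausted T cells that the list includes, had 6.15, 7.43, 3.04 and 5.37 CPM in the untreated MC38 libraries and 124, 108, 119.7 and 89.4 CPM in the untreated Panc02-SIY libraries (log2 fold change -4.37 ± 0.21, adjusted p = 1.7e-10). Cd160 was among the 10 genes with the largest falls, at 2.22 ± 1.98 against 68.2 ± 11.2 CPM, as was Cd7, a receptor of T and NK cells, at 5.13 ± 4.43 against 126 ± 37.6 CPM. Of 9 naive and memory T cell genes, 7 were lower (median -2.63), led by Satb1 (-3.22 ± 0.31), Il7r (-2.35 ± 0.32), the interleukin-7 receptor, and Cd27 (-3.14 ± 0.20), a costimulatory receptor. All 3 gamma delta T cell genes that passed the filter, of 6 listed, were lower, with Tcrg-C2 at 2.500 ± 2.797 against 32.9 ± 8.97 CPM and Trdc at 5.69 ± 2.197 against 13.4 ± 7.39 CPM. The call of Trdc was lost without any 1 of 3 libraries (adjusted p of 0.122 to 0.206).

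Granulocyte, mast cell and B lineage genes were also lower in MC38, from small numbers of barcodes. Of 10 neutrophil markers tested, 8 were lower and 1 higher. S100a9 and S100a8, subunits of calprotectin, were at 11.5 ± 10.1 against 439.7 ± 197 CPM and 23.7 ± 19.6 against 536 ± 301 CPM. S100a9 had 2.37 to 24.9 CPM in MC38 and 241 to 707 CPM in Panc02-SIY (log2 fold change -5.14 ± 0.70, adjusted p = 2.0e-05). Csf3r, the receptor of the neutrophil growth factor G-CSF, was also lower, at 30.7 ± 3.16 against 75.5 ± 25.6 CPM (log2 fold change -1.28 ± 0.23, adjusted p = 1.9e-04). The member called higher was Il1r2, a decoy receptor of interleukin-1, at 92.4 ± 11.01 against 60.5 ± 19.9 CPM with overlapping groups, and its call was lost without MC38 replicate 3 (adjusted p = 0.107) or Panc02-SIY replicate 4 (0.128). All 9 mast cell or basophil markers were called lower, and 5 of 5 where only the 8 untreated libraries entered the fit, since 4 did not pass its filter on low counts. The 9 markers summed to 4.86 to 8.93 CPM in MC38 and 40.1 to 547 CPM in Panc02-SIY. Members near 0 in MC38 could pass that filter only through Panc02-SIY libraries, so these counts are no separate support. Mcpt1 had 403, 1084, 264 and 33.8 CPM in Panc02-SIY and 1 UMI over all 4 MC38 libraries. Mcpt4 was at 0.348 ± 0.2404 against 121 ± 100.3 CPM, Mcpt2 at 1.396 ± 1.03 against 218 ± 191 CPM and Tpsb2, a mast cell tryptase, at 0.769 ± 0.842 against 54.7 ± 43.7 CPM.

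Of 11 B cell markers 9 were lower (median -3.26), with Cd79a, a subunit of the B cell receptor, at 0.352 ± 0.293 against 15.3 ± 13.2 CPM (log2 fold change -5.24 ± 1.2, adjusted p = 0.0017) and Ighm, the IgM heavy chain, at 73.5 ± 24.9 against 140.2 ± 27.3 CPM. Where only the 8 untreated libraries entered the fit, 8 B cell markers were tested and 6 were lower (median -2.71). Members near 0 in MC38, such as Cd79a, could pass the filter on low counts only through other libraries, so these counts are no separate support. The 4 plasma cell markers tested were called lower, with the same limit, but the call of Igha rested on 1 library. Igha, the IgA heavy chain, had 0.556, 352, 0.236 and 0.568 CPM in Panc02-SIY and 6.62, 0, 3.04 and 1.53 CPM in MC38, and without Panc02-SIY replicate 2 its log2 fold change turned from -4.99 to 2.58 (adjusted p = 0.0174). Igkc and Ighg2b, an antibody light and heavy chain, had their highest values in the same library, at 1561 and 506.5 CPM, and stayed lower in MC38 without it (adjusted p = 0.00167 and 0.0188).

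Macrophage genes rose in MC38. All 16 macrophage markers were called higher, with a median log2 fold change of 2.89, and their summed level was 23607 to 28672 CPM in MC38 libraries against 929 to 4535 CPM in Panc02-SIY libraries. Apoe (ENSMUSG00000002985), a lipid carrier protein, had 11397, 10406, 11260.5 and 12418 CPM in the untreated MC38 libraries and 215, 521, 342 and 311 CPM in the untreated Panc02-SIY libraries (log2 fold change 5.03 ± 0.23, adjusted p = 2.1e-10). Lyz2 (ENSMUSG00000069516), the lysozyme of myeloid cells, had 5743, 7223, 7188 and 7393 CPM in the untreated MC38 libraries and 435, 274, 587 and 223 CPM in the untreated Panc02-SIY libraries (log2 fold change 4.18 ± 0.30, adjusted p = 2.9e-08). C1qa (ENSMUSG00000036887), a chain of complement C1q, had 3334, 3568, 3573 and 4353 CPM in the untreated MC38 libraries and 192, 766, 551 and 1292 CPM in the untreated Panc02-SIY libraries, so that the Panc02-SIY libraries ranged widely but stayed below MC38 (log2 fold change 2.40 ± 0.49, adjusted p = 6.9e-04). C1qb and C1qc were at 3833 ± 398 against 674 ± 497 CPM and 2450.0 ± 277 against 520.4 ± 361 CPM, and Adgre1, which encodes the macrophage protein F4/80, was at 232 ± 31.1 against 48.97 ± 19.9 CPM (log2 fold change 2.23 ± 0.30, adjusted p = 1.2e-05). Of 10 complement genes tested 9 were higher and none lower (median 2.32), including C3ar1 (2.98 ± 0.31), the receptor of the C3a fragment, and Cfb (5.15 ± 0.31), complement factor B.

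The 10 largest rises, among called genes with at least 50 CPM in MC38 and no overlap, were Fcrls, Arg1, Pdpn, Ccl12, Tmem119, Trem2, 4930430E12Rik, Ch25h, Gpr84 and Cfb. Arg1 (ENSMUSG00000019987), the arginine-degrading enzyme of suppressive macrophages, had 854, 672, 576 and 524 CPM in the untreated MC38 libraries and 3.75, 4.03, 1.81 and 1.81 CPM in the untreated Panc02-SIY libraries (log2 fold change 7.92 ± 0.38, adjusted p = 8.1e-10). Trem2 (ENSMUSG00000023992), a lipid-sensing receptor of macrophages, had 428, 345, 434 and 482 CPM in the untreated MC38 libraries and 2.36, 2.57, 4.24 and 5.005 CPM in the untreated Panc02-SIY libraries (log2 fold change 6.82 ± 0.25, adjusted p = 2.5e-11). Fcrls and Tmem119, both widely used as microglia markers, were at 206 ± 93.3 against 1.11 ± 1.199 CPM and 102 ± 30.1 against 0.5401 ± 0.191 CPM. Pdpn, podoplanin, was at 68.7 ± 7.58 against 0.412 ± 0.433 CPM, Ch25h, the enzyme that makes 25-hydroxycholesterol, at 50.9 ± 9.42 against 1.07 ± 0.695 CPM, and Gpr84, a receptor of medium-chain fatty acids, at 50.9 ± 25.5 against 1.56 ± 0.533 CPM. Of 15 lipid-associated macrophage genes 13 were higher and none lower (median 1.94), with Lgals3, galectin-3, at 1374 ± 149.7 against 284 ± 18.2 CPM and the lysosomal proteases Ctsb and Ctsd at 1474 ± 108 against 383 ± 101 CPM and 653 ± 132 against 441 ± 9.005 CPM.

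Of 13 suppressive and wound-healing genes tested, 8 were higher and 3 lower, among them Tgfb1 (0.71 ± 0.094), the cytokine TGF-beta, and Thbs1 (1.01 ± 0.19), thrombospondin-1. Of 10 Fc receptors 6 were higher and 3 lower (4 and 1 with only barcodes found in 1 library of the line), with Fcgr2b (4.40 ± 0.25), the inhibitory IgG receptor, Fcgr3 (3.04 ± 0.14) and Fcgr1 (3.66 ± 0.36), activating IgG receptors, and Fcer1g (1.28 ± 0.19), their shared signaling chain. Of 11 interleukin-1 and inflammasome genes 9 were higher and none lower (median 1.28). Il1b (ENSMUSG00000027398), interleukin-1 beta, had 1927, 2462, 2599 and 2203 CPM in the untreated MC38 libraries and 733, 638, 470.1 and 644 CPM in the untreated Panc02-SIY libraries (log2 fold change 1.89 ± 0.13, adjusted p = 4.8e-09), and Il1rn, its natural antagonist, was at 191 ± 53.8 against 51.97 ± 24.5 CPM.

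**Figure D3:**
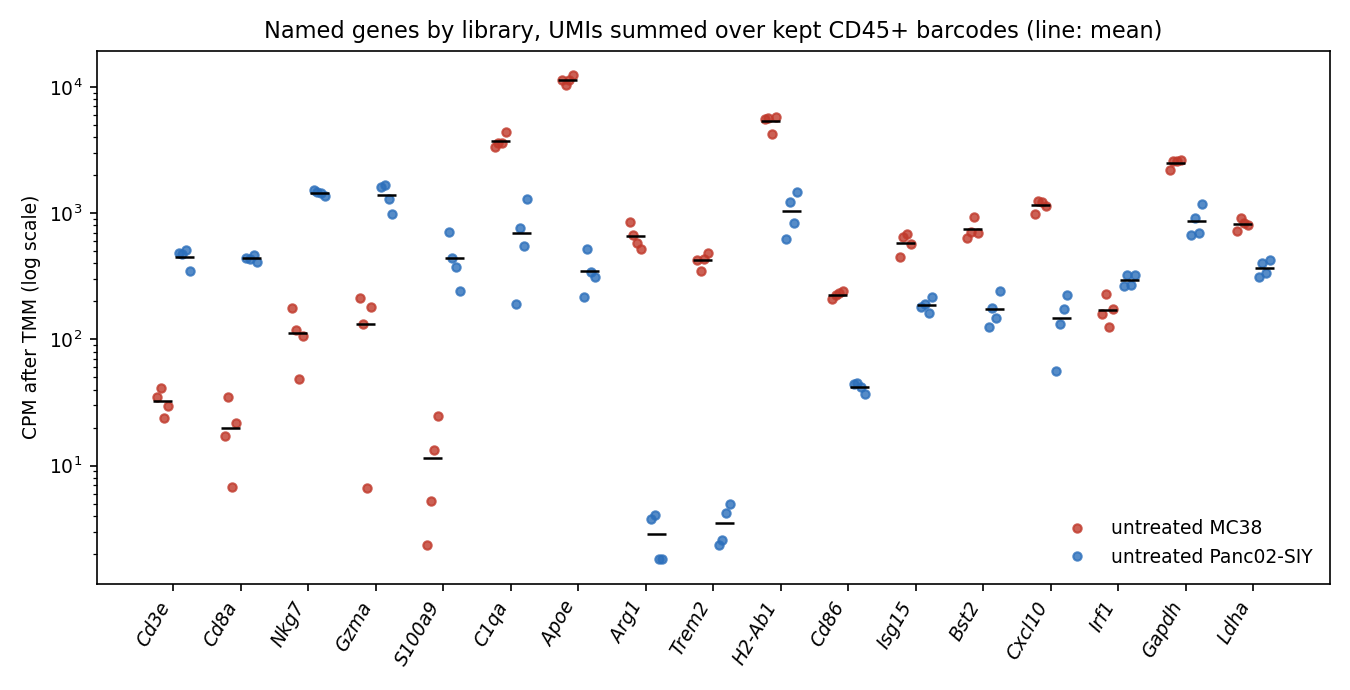
The y axis gives CPM on a log scale for 17 genes, with 1 point per library and a black line at the mean, red for untreated MC38 and blue for untreated Panc02-SIY. Cd3e lies at 23.9 to 41.5 CPM in MC38 and 348 to 508 CPM in Panc02-SIY, and Arg1 at 524 to 854 CPM against 1.81 to 4.03 CPM.

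Of 9 monocyte markers 7 were higher and none lower (median 1.45). Ccr2 (ENSMUSG00000049103), the chemokine receptor that draws monocytes into tissue, had 568, 501, 568 and 579 CPM in the untreated MC38 libraries and 228, 106, 189 and 48.1 CPM in the untreated Panc02-SIY libraries (log2 fold change 1.96 ± 0.37, adjusted p = 3.6e-04), and Fn1, fibronectin, was at 524 ± 92.97 against 191 ± 108 CPM. Ly6c2, the surface marker of inflammatory monocytes, was at 629 ± 216 against 399.6 ± 101 CPM with overlapping groups (log2 fold change 0.66 ± 0.24, adjusted p = 0.027, and adjusted p = 0.126 without MC38 replicate 3). cDC markers moved both ways, with 5 of 25 higher, 6 lower and 14 not called (median -0.12), both below the 29.1 and 32.0% of all genes. Zbtb46, the lineage factor of cDCs, was at 3.87 ± 1.62 against 4.92 ± 1.58 CPM and was not called (log2 fold change -0.34 ± 0.35, adjusted p = 0.41). Xcr1 (ENSMUSG00000060509), the chemokine receptor of type 1 cDCs, had 6.62, 8.98, 8.93 and 1.66 CPM in the untreated MC38 libraries and 10.1, 57.9, 41.9 and 72.5 CPM in the untreated Panc02-SIY libraries (log2 fold change -2.91 ± 0.65, adjusted p = 0.0014), and Cadm1, another type 1 cDC marker that also led macrophage-marker cluster 4, was at 25.6 ± 10.05 against 118 ± 77.3 CPM. Naaa, a lysosomal amidase that the study names with Cadm1 and Xcr1 for type 1 cDCs, went the other way, at 186 ± 54.1 against 64.6 ± 10.1 CPM. Mgl2, a lectin of type 2 cDCs and macrophages, was higher at 94.3 ± 36.1 against 8.04 ± 6.54 CPM. Clec4b1, another listed cDC marker that also led cluster 4, was lower (log2 fold change -2.43). Among 5 plasmacytoid dendritic cell markers tested 1 was higher and 3 lower, with Tcf4 at 117 ± 18.4 against 57.2 ± 12.6 CPM and Siglech at 1.203 ± 1.61 against 7.03 ± 3.22 CPM, and their median moved from -2.28 to 0.27 with only barcodes found in 1 library of the line.

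Antigen presentation genes of class II rose together. All 9 MHC class II genes were higher (median 2.18), from a summed 3825 to 8850 CPM in Panc02-SIY to 25600 to 33938 CPM in MC38. H2-Ab1 (ENSMUSG00000073421), a class II beta chain, had 5565, 5652, 4265 and 5817 CPM in the untreated MC38 libraries and 619, 1230.0, 838 and 1462 CPM in the untreated Panc02-SIY libraries (log2 fold change 2.36 ± 0.26, adjusted p = 1.5e-06). Cd74, the class II invariant chain, had the largest difference in mean level of the genes called higher, at 14868 ± 1787 against 3020.0 ± 1072 CPM, and H2-Aa and H2-Eb1 were at 5023 ± 700.0 against 1109 ± 312 CPM and 4772 ± 633 against 961 ± 375 CPM. In all 4 of these genes MC38 replicate 3 was the lowest of its group. MHC class I genes were split, with 4 of 18 higher and 4 lower (median 0.18). H2-D1, a classical class I gene, was at 3021 ± 125 against 1628 ± 141 CPM (log2 fold change 0.89 ± 0.092, adjusted p = 4.7e-07), while H2-Q7, a nonclassical one whose reads can be shared with near-identical genes, was at 325 ± 32.9 against 578 ± 93.3 CPM (log2 fold change -0.83 ± 0.16, adjusted p = 2.1e-04). Psmb8, an immunoproteasome subunit, had a log2 fold change of 0.64. Of 10 costimulatory and checkpoint ligands 5 were higher and 2 lower. Cd86 (ENSMUSG00000022901), a ligand of CD28, had 209.5, 223, 231 and 241 CPM in the untreated MC38 libraries and 43.9, 44.9, 42.3 and 36.7 CPM in the untreated Panc02-SIY libraries (log2 fold change 2.43 ± 0.12, adjusted p = 1.7e-10), and Cd40, a receptor for T cell help, was at 80.5 ± 21.2 against 10.8 ± 2.95 CPM (log2 fold change 2.90 ± 0.23, adjusted p = 5.4e-08).

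Of 21 chemokines tested 12 were higher and 2 lower (median 1.60), while with only barcodes found in 1 library of the line 7 of 20 were higher and 3 lower (median 0.0353). Ccl12, a monocyte attractant, was at 577 ± 271 against 3.13 ± 1.26 CPM, and Cxcl10 (ENSMUSG00000034855), a ligand of CXCR3, a chemokine receptor of T cells, had 993, 1246, 1217 and 1140.4 CPM in the untreated MC38 libraries and 55.9, 133, 174 and 227 CPM in the untreated Panc02-SIY libraries (log2 fold change 2.96 ± 0.34, adjusted p = 2.9e-06). Cxcl9, another CXCR3 ligand, had 719.7, 1758, 319.8 and 1272 CPM in the untreated MC38 libraries and 85.6, 456, 304 and 495 CPM in the untreated Panc02-SIY libraries, and 1 MC38 library lay inside the Panc02-SIY range (log2 fold change 1.60 ± 0.58, adjusted p = 0.026). The members called lower were Ccl5 and Ccl4, which T and NK cells make in large amounts. Ccl5 (ENSMUSG00000035042) had 359.7, 627, 717 and 531 CPM in the untreated MC38 libraries and 2739, 2787, 2482 and 2059 CPM in the untreated Panc02-SIY libraries (log2 fold change -2.17 ± 0.26, adjusted p = 3.3e-06), and Ccl4 was at 964 ± 232 against 1540.0 ± 278 CPM with overlapping groups. Of 14 chemokine receptors 5 were higher and 7 lower (median -1.44, and 0.24 with 5 higher and 4 lower on those barcodes), with the myeloid receptors Ccr1 (3.33 ± 0.22) and Ccrl2 (2.15 ± 0.17) higher.

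Interferon-stimulated genes were mostly higher in untreated MC38, while the interferon gamma list was called at about the shares of all genes. Of 41 type I interferon-stimulated genes tested, 32 were higher and 1 lower (median 1.47), against 29.1% higher and 32.0% lower among all genes, and their summed level was 7000 to 9367 CPM in MC38 and 3081 to 3573 CPM in Panc02-SIY. Isg15 (ENSMUSG00000035692), a ubiquitin-like antiviral modifier, had 446, 646, 679 and 564 CPM in the untreated MC38 libraries and 179, 190.1, 161 and 217 CPM in the untreated Panc02-SIY libraries (log2 fold change 1.64 ± 0.17, adjusted p = 3.9e-07). Bst2 (ENSMUSG00000046718), tetherin, which holds virus particles at the cell surface, had 639, 711, 939 and 693 CPM in the untreated MC38 libraries and 124, 178, 148 and 244 CPM in the untreated Panc02-SIY libraries (log2 fold change 2.10 ± 0.24, adjusted p = 1.8e-06). Ifi27l2a, another interferon-induced gene, was at 1632 ± 384 against 353 ± 126 CPM (log2 fold change 2.21 ± 0.21, adjusted p = 3.3e-07). Of 20 interferon gamma-induced genes tested, 5 were higher and 7 lower (median 0.22), near the 29.1% higher and 32.0% lower among all genes. Their summed level was 2734 to 5282 CPM in MC38 and 1693 to 2934 CPM in Panc02-SIY, ranges that overlapped. Cxcl10 and Cxcl9, given above, were among the 5 called higher. Irf1, a transcription factor, was at 172 ± 43.7 against 295 ± 32.7 CPM (log2 fold change -0.78 ± 0.21, adjusted p = 0.0036) and Gbp7, a guanylate-binding protein, at 123 ± 30.8 against 180.1 ± 21.1 CPM (log2 fold change -0.55 ± 0.16, adjusted p = 0.0057). Of the other lower members, named after their values were seen, Gbp4 had a log2 fold change of -1.57 ± 0.32, Irgm2, an immunity-related GTPase, of -1.36 ± 0.20 and Gbp8 of -1.07 ± 0.23.

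Promoter sequences of the interferon-stimulated genes are shown because this group moved together. The motif searched on both strands was a pair of GAAA repeats with any 2 bases between them, the core of the interferon-stimulated response element, in windows of 300 bases around each gene start (RefSeq, GRCm38.p6). It was found in 19 of 31 list members with a sequence (61.3%) and in 3.99% of the 27025 genes in the table. It was found in 14 of 23 members called higher and in 5 of 8 others. The 250 bases before the start of Isg15 (chr4:156200819-156201068, minus strand) and Bst2 (chr8:71537473-71537722, minus strand) follow from 5′ to 3′, with motif matches in capitals, the first of which begin 78 and 130 bases before the start and overlap the next match.
Isg15: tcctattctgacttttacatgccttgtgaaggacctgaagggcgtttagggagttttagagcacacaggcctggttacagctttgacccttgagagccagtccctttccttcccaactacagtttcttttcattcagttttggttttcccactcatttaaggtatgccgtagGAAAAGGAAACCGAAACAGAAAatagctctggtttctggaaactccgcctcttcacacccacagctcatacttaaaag
Bst2: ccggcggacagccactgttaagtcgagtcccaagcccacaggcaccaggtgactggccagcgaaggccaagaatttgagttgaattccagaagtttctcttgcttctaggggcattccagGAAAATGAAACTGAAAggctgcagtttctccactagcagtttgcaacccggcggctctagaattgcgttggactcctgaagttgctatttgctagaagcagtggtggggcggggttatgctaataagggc

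Genes of glycolysis and hypoxia rose together as well. Of 19 glycolysis and hypoxia genes tested 17 were higher and 1 lower (median 1.53), and their summed level was 6200 to 8010 CPM in MC38 and 2177 to 3171 CPM in Panc02-SIY. Gapdh (ENSMUSG00000057666), a glycolytic enzyme, had 2198, 2583, 2596 and 2642 CPM in the untreated MC38 libraries and 665, 920.4, 695 and 1181 CPM in the untreated Panc02-SIY libraries (log2 fold change 1.53 ± 0.20, adjusted p = 6.1e-06). Ldha, which makes lactate, was at 817 ± 78.7 against 369.5 ± 55.01 CPM (log2 fold change 1.14 ± 0.15, adjusted p = 7.3e-06), and the glycolytic enzymes Pkm and Eno1 were at 876 ± 147 against 302 ± 57.8 CPM and 797 ± 90.8 against 229.9 ± 29.00 CPM. The member called lower, named as the exception, was Ndrg1 (-1.13 ± 0.32), a hypoxia and stress gene, which was higher within the macrophage-marker clusters described below (0.57). Of 14 immediate early genes 8 were higher and 1 lower (median 0.67), with Fos (1.43 ± 0.16), Junb (0.78 ± 0.14), Btg2 (1.02 ± 0.11) and Zfp36 (0.70 ± 0.11), which are induced within minutes of stimulation or stress, tissue dissociation included. Their summed level was 9005 to 10921 CPM in MC38 and 5300 to 6849 CPM in Panc02-SIY, and their part in other results was not tested. Of 10 heat shock genes tested 2 were higher and 1 lower (median 0.29). Hspa8, a constitutive chaperone, was at 1958 ± 127 against 1013 ± 110.0 CPM, and the inducible Hspa1a had 7.33, 13.9, 90.6 and 13.3 CPM in MC38, with 1 high library, and 0.973 to 3.85 CPM in Panc02-SIY (log2 fold change 3.82, and 2.36 without MC38 replicate 3).

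Cell cycle genes were called lower in 4 of 19 cases and higher in none (median -0.24), with Hmgb2 at 543 ± 89.7 against 943 ± 289.9 CPM and overlapping groups, and Mki67 at 56.7 ± 25.7 against 139.7 ± 78.7 CPM, whose call was lost without any 1 of 4 libraries (adjusted p of 0.122 to 0.220). Of 96 ribosomal protein genes 9 were higher and 20 lower (median -0.07), and of 13 mitochondrially encoded genes 4 were lower and none higher (median 0.06), with mt-Co1, a subunit of respiratory complex IV, at 7621 ± 840.2 against 10530.4 ± 1323 CPM (log2 fold change -0.47 ± 0.11, adjusted p = 0.0013). Both lists moved with the barcodes and the scaling. With only barcodes found in 1 library of the line 2 of 95 ribosomal protein genes were higher and 80 lower (median -0.82), and all 13 mitochondrially encoded genes were higher (median 1.46). With libraries scaled by total count alone 4 ribosomal protein genes were higher and 37 lower (median -0.27), and the mitochondrial median was -0.14. The genes with the largest falls in mean level besides mt-Co1 and Ccl5 were Tmsb10 (-0.87 ± 0.16), an actin-binding peptide, Rpl37a (-0.63 ± 0.094), a ribosomal protein, and AW112010 (-1.15 ± 0.23). Those with the largest rises besides Cd74, Apoe and Lyz2 were Fth1 (1.85 ± 0.19), the ferritin heavy chain, and Actb (0.48 ± 0.11), beta-actin. The sex-linked list left 1 testable gene, Xist, at 641 ± 38.2 against 964 ± 114 CPM, and 4 Y-linked genes did not pass the filter on low counts.

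The listed markers of non-leukocytes had low summed levels in MC38 and up to 313 CPM in Panc02-SIY. The 7 fibroblast markers summed to 13.9 to 33.9 CPM in MC38 and 13.1 to 313 CPM in Panc02-SIY, and 5 were called lower, of which Col1a1 lost its call without Panc02-SIY replicate 3 (adjusted p = 0.294) and Dcn without replicate 4 (0.157). With only barcodes found in 1 library of the line none of 5 was lower and 1 was higher (median 0.44). Of 8 epithelial or cancer cell markers 4 passed the filter, summing to 1.86 to 15.2 CPM in MC38 and 11.7 to 74.4 CPM in Panc02-SIY. Krt8, a keratin, had 0 UMIs in MC38 and 14.2, 24.4, 4.004 and 36.2 CPM in Panc02-SIY. Mgp, matrix Gla protein, was among the largest falls at 3.86 ± 0.946 against 110.5 ± 96.4 CPM, and it led unnamed cluster 15, which held 0 MC38 and 202 Panc02-SIY barcodes with a median of 38885.5 UMIs. Cluster 15 raised 4 fibroblast markers and had 6.08 times the median depth of its own libraries. It held 1.52 ± 1.39% of Panc02-SIY barcodes, with 151 barcodes in replicate 4. Its share of the summed Panc02-SIY UMIs, against which other genes are scaled, was not measured. Endothelial cell and platelet lists left 1 testable gene each, Kdr (3.12 ± 2.29 against 1.05 ± 0.766 CPM, with adjusted p = 0.169 without MC38 replicate 3) and Itga2b (0.813 ± 0.3002 against 2.85 ± 1.28 CPM), both eosinophil markers tested were lower (summed 1.43 to 2.36 CPM against 3.45 to 8.06 CPM), and no red blood cell gene passed the filter. Fibroblast-like barcodes made up 10.1 ± 2.97% of MC38 and 1.45 ± 0.719% of Panc02-SIY barcodes (exact permutation p = 0.0286, adjusted p = 0.0429). They were shallow, with medians of 664 and 914 UMIs, and the difference turned to -1.23 percentage points when all called barcodes were clustered anew.

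To narrow the comparison to barcodes with macrophage markers, both groups were also compared within the 5 macrophage-marker clusters. These held 132 to 355 barcodes per MC38 library and 121 to 1361 per Panc02-SIY library. MC38 barcodes came mainly from clusters 8 (555 against 54 from Panc02-SIY) and 14 (226 against 4). Panc02-SIY barcodes came mainly from the unnamed clusters 0 (1316 against 13 from MC38) and 4 (720 against 0). Median depth was 1083 UMIs in cluster 0 and 18027.5 in cluster 4, so these barcode counts are not weights in the summed UMIs. Cluster 4 held 4, 103, 60 and 553 barcodes in Panc02-SIY replicates 1 to 4, and replicate 1 had 14 in cluster 8. The make-up of the Panc02-SIY sums thus differed between replicates, and the share of each cluster in them was not measured. Tumor line and cluster therefore cannot be told apart here, and genes that separated the clusters also differ between the groups. Of 10026 genes tested 2321 were called higher in MC38 (23.1%) and 2406 lower (24.0%). Of the 3622 genes called higher over all barcodes 3282 were tested here, and 1717 of them were again called higher and 214 lower. Of 3988 called lower, 2752 were tested, and 1587 were again lower and 98 higher. Because depth per barcode differed so much in these clusters, the summed counts were also thinned to an equal mean per barcode. This gave 1343 higher and 1381 lower of 6790 genes tested. Such thinning removes counts but leaves the expected CPM of a gene unchanged. It therefore cannot show what part shallow barcodes have in these differences, which was not tested.

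Most interferon-stimulated genes and most genes of the glycolysis and hypoxia list were called higher within these clusters too. Of 41 interferon-stimulated genes tested, 32 were higher and 1 lower (median 1.29), with Isg15 at 601 ± 99.01 against 227 ± 53.8 CPM (log2 fold change 1.44 ± 0.16, adjusted p = 2.9e-05) and Bst2 at 790.1 ± 130.2 against 301 ± 23.2 CPM (log2 fold change 1.40 ± 0.12, adjusted p = 1.6e-06). Over thinning, the cell filter and leaving out each library, 31 to 33 of these genes were higher and 1 lower. Of 19 interferon gamma-induced genes 1 was higher, Cxcl10 (log2 fold change 2.75 ± 0.41, adjusted p = 0.0014), and 9 lower (median -0.63), among them Irf1 (-0.82) and Gbp7 (-0.97). Over the same alternatives 6 to 9 of them were lower, against 24.0% of all genes in these clusters. Of 19 glycolysis and hypoxia genes 17 were higher and none lower (median 1.32, 14 to 17 higher over the same alternatives), with Gapdh at 2553 ± 183 against 1019.7 ± 145 CPM (log2 fold change 1.32 ± 0.11, adjusted p = 1.5e-06). Arg1 was at 743 ± 200.1 against 9.42 ± 9.31 CPM (log2 fold change 6.96 ± 0.68, adjusted p = 2.1e-04), Trem2 at 471 ± 53.5 against 18.5 ± 5.27 CPM (log2 fold change 4.80 ± 0.18, adjusted p = 2.1e-09) and Apoe at 12711 ± 725 against 2079 ± 872 CPM (log2 fold change 2.62 ± 0.33, adjusted p = 4.9e-04).

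Genes of MHC class II and complement, by contrast, had smaller medians within the macrophage-marker clusters than over all barcodes. Of 9 MHC class II genes 1 was called higher and none lower (median 0.11), and H2-Ab1 was at 5343 ± 1095 against 4995 ± 1196 CPM (log2 fold change 0.10 ± 0.20, adjusted p = 0.72). C1qa was at 4144 ± 285 against 3864 ± 686 CPM (log2 fold change 0.10 ± 0.12, adjusted p = 0.53), and Adgre1 at 259 ± 25.2 against 272 ± 43.7 CPM (log2 fold change -0.07 ± 0.12, adjusted p = 0.68). C1qa, C1qb, C1qc, Adgre1, Apoe and Trem2 are among the 16 markers by which these clusters were chosen. Their values here, and the macrophage, complement and lipid-associated counts that follow, are therefore not independent of that choice. Of 16 macrophage markers 10 were higher and 1 lower (median 0.68), of 10 complement genes 4 and 2 (median 0.40), of 13 lipid-associated genes 5 and 1 (median 0.79), and of 9 monocyte markers 4 and 0 (median 2.09). Cd86 stayed higher, at 229 ± 10.97 against 96.6 ± 23.3 CPM (log2 fold change 1.29 ± 0.15, adjusted p = 3.1e-05). T cell RNA was also present in these clusters and moved with the libraries: all 15 T cell markers were lower in MC38 (median -4.06), and Cd3e was at 1.84 ± 1.14 against 54.5 ± 5.37 CPM. The part of such RNA from other cells in the values of this comparison was not tested.

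**Figure D4:**
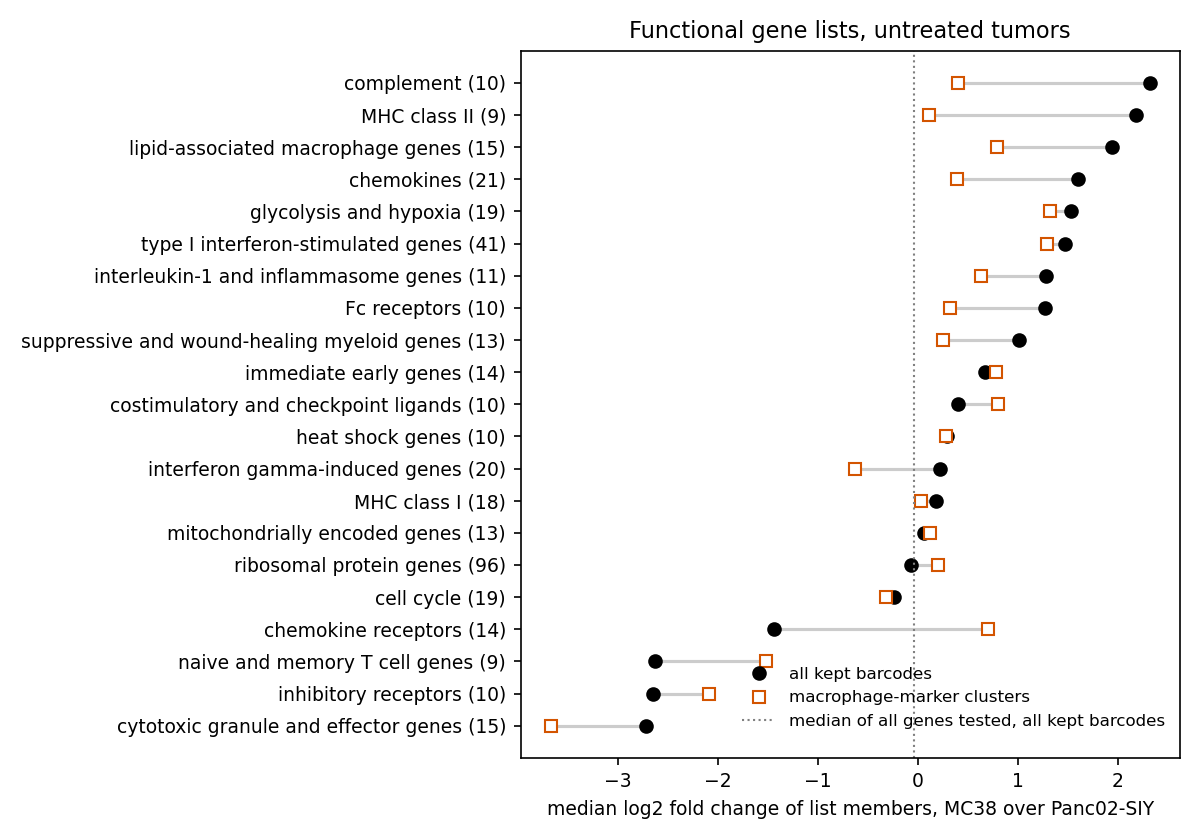
Each row is a functional gene list with the number of members tested over all kept barcodes, black circles give the median log2 fold change (untreated MC38 over untreated Panc02-SIY) over all kept barcodes and open squares that within the macrophage-marker clusters, and the dotted line is the median of all genes tested (-0.04). MHC class II genes move from 2.18 to 0.11 and complement genes from 2.32 to 0.40, while interferon-stimulated genes lie at 1.47 and 1.29 and glycolysis and hypoxia genes at 1.53 and 1.32. The C1q chains in the complement list were among the markers by which the macrophage-marker clusters were chosen.

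**Figure D5:**
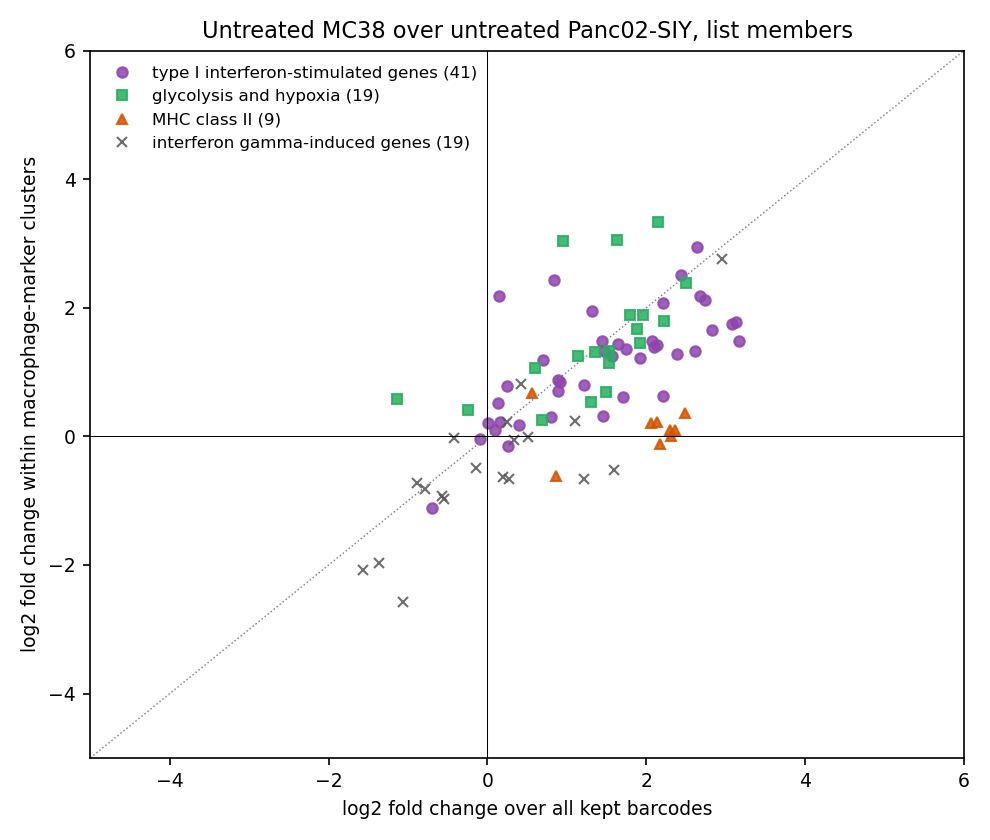
Each point is a gene of 4 lists, with its log2 fold change (untreated MC38 over untreated Panc02-SIY) over all kept barcodes on the x axis and within macrophage-marker clusters on the y axis, and the dotted line marks equal values. MHC class II genes (triangles) lie between -0.62 and 0.68 on the y axis, and glycolysis and hypoxia genes (squares) lie above 0 on it.

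Macrophage-like and fibroblast-like barcodes could be fitted on their own, with at least 10 barcodes in each library. In macrophage-like barcodes, 850 from MC38 and only 60 from Panc02-SIY, 1358 of 8561 genes were higher and 1206 lower. Without any 1 MC38 library 3211 to 3230 genes were tested and 661 to 681 were higher. With all called barcodes, clustered anew, 1912 of 7720 were higher and 221 lower. In fibroblast-like barcodes, 125 and 132, 61 of 411 genes were higher and 78 lower, against 391 and 635 of 2206 with all called barcodes and 27 and 25 of 199 with the cell filter. All other named classes had too few barcodes in at least 1 library for such a fit (T cell-like 3, NK cell-like 0, regulatory T cell-like 5 and cDC-like 6 in the smallest), so that their expression was not compared between the tumors.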

How the data were processed

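The deposited files hold raw UMI counts per gene and cell barcode, 1 matrix per library, which the authors made from 10x Genomics 3′ libraries of sorted CD45+ tumor cells (Cell Ranger 3.1.0, bcl2fastq 2.20.0 and mm10, per the submitters' processing notes). From these counts, a barcode string found in several libraries of a tumor line was kept only in the library with most UMIs, and UMIs were summed per library over the kept barcodes. Genes passed filterByExpr (minimum count 10, minimum total 15), were scaled by TMM and were tested with the quasi-likelihood test of edgeR 4.0.16 (R 4.3.3) in 1 fit of 16 libraries, in which the 8 irradiated libraries entered the filter and the estimate of the spread (11752 genes passed with the 8 untreated libraries alone). Calls needed p under 0.1 after Benjamini-Hochberg adjustment and a change by more than 1.3 times, and the SE of a log2 fold change is its size divided by the square root of F. On simulated counts with 100 genes changed by 1 on the log2 scale and 100 by 2, 95 and 100% were recovered, with 13 false calls among 12144 genes. The changed genes were above 10 CPM and split evenly by direction, and all genes had 1 coefficient of variation between libraries (0.202). In the data 7610 genes were called and the spread differed between genes, so these rates do not carry over to them.

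Barcodes were clustered in scanpy 1.11.5 (2000 variable genes, 30 principal components, 20 neighbors, Leiden resolution 1). A cluster was named from at least 3 raised markers and stayed unnamed where more markers of another class were among its 10 leading genes, or where its depth was low beside its own libraries and no marker of its class led. A rule added after clusters were seen also left it unnamed where fewer than 5 were raised and none was among its 10 leading genes. Doublets were not removed in the values given, because Scrublet marked 0.133% of barcodes by its own threshold. Removing the 5% with the highest score was an alternative. All called barcodes and barcodes found in 1 library of the line were clustered and named anew, so their classes are not those of the kept barcodes. Shares were compared by exact two-sided permutation tests. No counting interval covers differences between animals.

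Named genes were, per direction, the 10 largest log2 fold changes among called genes without overlap and with at least 50 CPM in the higher group, the 5 largest differences in mean CPM, up to 4 called members of each list with the highest CPM, and lineage markers. Ptprc, Ndrg1, Gbp4, Gbp8, Irgm2 and leading genes of clusters were named after their values were seen. The members and lists were chosen with earlier results of these data known. The symbols Mx2, Cxcl11 and Aldoa on the lists matched no gene and were not used here. A few genes that the rule names are not reported here. Same-numbered libraries of both groups had correlations of deviations of -0.04 to 0.121, and only replicate 4 correlated best with its own number. The main fit used no pairing by replicate number, and whether these numbers share a processing order was not tested.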

Additional observations from a re-analysis of the deposited data

Results flagged for a closer look

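With 4 libraries per group, 22 of 288 groups of values (7.64%) held a library whose gap to its nearest neighbor, as a share of the whole range of the group, exceeded Dixon's 95% critical value, where chance gives about 1 in 20. Values below are these gaps.

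One library, Panc02-SIY replicate 2, stood apart for Igha (0.999, 352.5 CPM against at most 0.568 CPM in the others), and 1 for Col1a1 (0.852, 127 CPM against at most 19.95 CPM). MC38 replicate 3 was the lowest of its group for the MHC class II genes H2-Aa (0.951), H2-Eb1 (0.875), H2-Ab1 (0.837) and Cd74 (0.835), and the highest for the chaperone Hspa1a (0.921, 90.6 CPM against at most 13.9 CPM) and for the B cell-like share (0.842).

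In untreated MC38, 1 library also stood apart for Lyz2 (0.876), H2-Q7 (0.869), Ifi27l2a (0.880), Gapdh (0.867), Gzmb (0.864), Ccr2 (0.862), C1qc (0.834), the share in macrophage-marker clusters (0.855, 70.7% against at most 62.0%) and Mcpt1 (1, on 1 UMI). In untreated Panc02-SIY, 1 library stood apart for Klrd1 (0.909), Trbc2 (0.869), Junb (0.861), Zfp36 (0.834) and Actb (0.829004).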

How the results depend on the processing

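Counts of genes higher and lower stayed within 1.5 times of 3622 and 3988 under RLE scaling, library size alone, DESeq2, no filter on low counts, other thresholds, the cell filter, thinning, doublet removal, all called barcodes and only the 8 untreated libraries, with 3494 to 3791 and 3818 to 4059 when each library was left out. With only barcodes found in 1 library of the line they were 1940 and 2185, 2868 calls were kept and 104 reversed, the NK cell-like, cDC-like, fibroblast-like and regulatory T cell-like differences were 8.71, 18.1, -1.19 and 2.79 percentage points, and log2 fold changes became -0.53 for Actb, 0.44 for Col1a1, -0.47 for Ctsd, -0.25 for Fcer1g, 0.13 for Foxp3, -0.0372 for Hspa8, 0.55 for Ikzf2, -0.71 for Ly6c2, -0.21 for Psmb8, 0.72 for Siglech, 0.64 for Xist and 0.85 for mt-Co1. The cause was not tested. The share differences there come from classes found by clustering these barcodes anew. Igha ranged from -5.69 without MC38 replicate 1 to 2.58 without Panc02-SIY replicate 2. With all called barcodes, shares differed by -0.792 (B cell-like), 2.63 (cDC-like), -1.23 (fibroblast-like) and -1.19 (monocyte-like) points, and the B cell-like, cDC-like and monocyte-like calls were gained. The cell filter gave -1.09 (B cell-like) and 2.70 (cDC-like), both calls gained, 10 principal components 1.75 (regulatory T cell-like), and resolution 2 -0.0423 (cDC-like) and 0.465 (regulatory T cell-like). Within fibroblast-like barcodes 391 genes were higher and 635 lower with all called barcodes and 27 and 25 with the cell filter. Within macrophage-like barcodes 221 were lower with all called barcodes, and 661 to 1495 were higher and 837 to 1099 lower when each library was left out. Within macrophage-marker clusters thinning gave 1343 and 1381. With the replicate number as a block 3466 genes were higher and 3617 lower; replicate 4 alone correlated best with its own number. Of 2830 values of named genes under alternatives, 2754 held their direction and call, 62 lost the call, 1 gained it and 13 turned. Depth limits MC38, with 218 to 502 barcodes per library.

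Leaving out 1 library gave share differences of -0.622 to -0.203 points for B cell-like, -7.05 to -4.74 for NK cell-like, -32.4 to -29.7 for T cell-like, 0.449 to 1.67 for cDC-like, -0.786 to -0.484 for eosinophil-like, 7.47 to 9.79 for fibroblast-like, 59.5 to 63.1 for macrophage-like, -0.854 to -0.428 for mast cell-like or basophil-like, -1.18 to -0.171 for monocyte-like, -7.90 to -6.41 for neutrophil-like and -2.10 to -0.440 for regulatory T cell-like barcodes. With 3 against 4 libraries the exact test cannot go below 0.0571.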
